A study of Mus musculus with 6 samples.

Results

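The Rbfox splicing regulator family comprises Rbfox1, Rbfox2 and Rbfox3, and its 3 loci were examined for RNA crosslinked to the polypyrimidine tract binding proteins PTBP1 and PTBP2 in mouse cortex. A member was any distinct interval (a unique chromosome, strand, start and end) whose midpoint lay in the Rbfox1 locus (chr16, 5.88 to 7.42 Mb, plus strand), the Rbfox2 locus (chr15, 76.9 to 77.14 Mb, minus strand) or the Rbfox3 locus (chr11, 118.35 to 118.78 Mb, minus strand), all in the mm9 build. By this rule 30916 of the 940882 distinct intervals of the series (3.29%, each counted once over all libraries) were members, of which 29709 lay in Rbfox1, 602 in Rbfox2 and 605 in Rbfox3. The loci were picked after interval counts of these libraries had been seen, so the levels below are a description, and the locus bounds are those of the rule rather than of a gene model.

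Rbfox proteins are RNA-binding proteins that recognise a short sequence element in introns near alternative exons and thereby promote or repress inclusion of those exons. Rbfox1 and Rbfox3 are enriched in neurons, Rbfox2 is expressed more widely, and the antibody against Rbfox3 protein is the common neuronal nuclear marker NeuN. PTBP1 and PTBP2 bind pyrimidine-rich RNA and also regulate splicing; PTBP1 is low in neurons, where PTBP2 is present during development.

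Crosslinking and immunoprecipitation with sequencing (CLIP-seq) gave 6 libraries from nuclear fractions of cerebral cortex of BL6/129Sv mice at postnatal day 1. FLAG antibody was used on WT cortex (2 libraries, replicates 1 and 2), on Rosa-PTBP1; Emx1-cre cortex (1 library, written FLAG Rosa-PTBP1) and on Rosa-PTBP1; PTBP2 loxp/loxp; Emx1-Cre cortex (1 library, written FLAG loxP). A PTBP2 polyclonal antibody was used on WT cortex (1 library) and on Rosa-PTBP1; Emx1-cre cortex (1 library). The Rosa-PTBP1 allele supplies PTBP1 with a FLAG tag. The Emx1-cre driver expresses its recombinase in the dorsal forebrain lineage that gives rise to cortical excitatory neurons, so cells of other lineages in the cortex are not expected to recombine. The PTBP2 loxp alleles can be deleted by the same recombinase. Every Rosa-PTBP1 library also carried the recombinase, and the labels name no cortex with the recombinase alone. WT cortex has no FLAG-PTBP1, so its FLAG libraries measured background of the FLAG antibody and procedure. No library measured background of the PTBP2 antibody.

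The libraries held from 26665 (WT FLAG replicate 2) to 351602 (FLAG Rosa-PTBP1) distinct intervals. The WT FLAG libraries stood apart from the other 4: just 0.547% (replicate 1) and 8.96% (replicate 2) of their merged sites (runs of overlapping or touching intervals of one library) were stacked, meaning built from 5 or more distinct intervals, against 13.1% to 56.3% in the others. The deposited lists held only clusters that had passed a false discovery rate, so a place listed at 0 may still have held reads. Some chromosomes were sparse in a library, meaning that they held under 0.5 times the median share of sites in the other libraries. In PTBP2 Rosa-PTBP1 7 were sparse, at 0.499% to 2.90% of its sites where the other libraries' median was 2.38% to 6.57%. Chromosome 10 was sparse in FLAG Rosa-PTBP1 (0.198% against 5.94%), and the mitochondrial chromosome, with few sites anywhere, in 3 FLAG libraries. Chromosomes 11, 15 and 16 were filled in all 6 libraries, and values recomputed on the 13 chromosomes filled in every library are given as "filled chromosomes" where they change a statement. With 1 library per group, apart from WT FLAG, no test between conditions was possible. The intervals given are exact 95% confidence intervals that cover counting error only, and neighbouring reads of one site are not independent.

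Rbfox1, the longest of the loci at 1.54 Mb, carried most of the family's intervals in every library. WT FLAG replicate 1 listed 745 intervals there and replicate 2 listed 156, whereas FLAG Rosa-PTBP1 listed 13625, FLAG loxP 8787, PTBP2 WT 4565 and PTBP2 Rosa-PTBP1 2604. As shares of each library these were 0.843% (95% interval 0.784 to 0.906) and 0.585% (0.497 to 0.684) in WT FLAG replicates 1 and 2. The shares were 3.88% (3.81 to 3.94) in FLAG Rosa-PTBP1, 3.30% (3.24 to 3.37) in FLAG loxP, 2.94% (2.85 to 3.02) in PTBP2 WT and 3.50% (3.37 to 3.63) in PTBP2 Rosa-PTBP1. All 4 PTBP libraries lay above both WT FLAG libraries, and no interval of counting error overlapped between these sets. Of all intervals listed on chromosome 16, Rbfox1 held 45.1%, 46.5%, 41.9% and 38.2% in FLAG Rosa-PTBP1, FLAG loxP, PTBP2 WT and PTBP2 Rosa-PTBP1, against 15.8% and 18.6% in WT FLAG replicates 1 and 2.

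Rbfox2, the more widely expressed paralogue, listed 51 and 18 intervals in WT FLAG replicates 1 and 2, 247 in FLAG Rosa-PTBP1, 164 in FLAG loxP, 74 in PTBP2 WT and 52 in PTBP2 Rosa-PTBP1. Its shares ran from 0.0476% (0.0374 to 0.0598) in PTBP2 WT to 0.0702% (0.0618 to 0.0796) in FLAG Rosa-PTBP1, and both WT FLAG libraries fell between these values at 0.0577% and 0.0675%. FLAG Rosa-PTBP1 lay above PTBP2 WT beyond counting error. PTBP2 Rosa-PTBP1 over PTBP2 WT was 1.47-fold (1.01 to 2.12), and 1.07-fold on filled chromosomes with an interval that included equal shares.

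Rbfox3, which encodes NeuN, listed 60 and 22 intervals in WT FLAG replicates 1 and 2, 163 in FLAG Rosa-PTBP1, 98 in FLAG loxP, 156 in PTBP2 WT and 109 in PTBP2 Rosa-PTBP1. Its share was lowest in the FLAG-PTBP1 libraries, at 0.0368% (0.0299 to 0.0449) in FLAG loxP and 0.0464% (0.0395 to 0.0540) in FLAG Rosa-PTBP1. WT FLAG replicates 1 and 2 followed at 0.0679% (0.0518 to 0.0874) and 0.0825% (0.0517 to 0.125), and the PTBP2 libraries were highest at 0.100% (0.0852 to 0.117) in WT and 0.146% (0.120 to 0.177) in Rosa-PTBP1. In this order of the 6 libraries each neighbouring pair had overlapping intervals, apart from the 2 PTBP2 libraries, whose difference on filled chromosomes was within counting error.

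**Figure D1:**
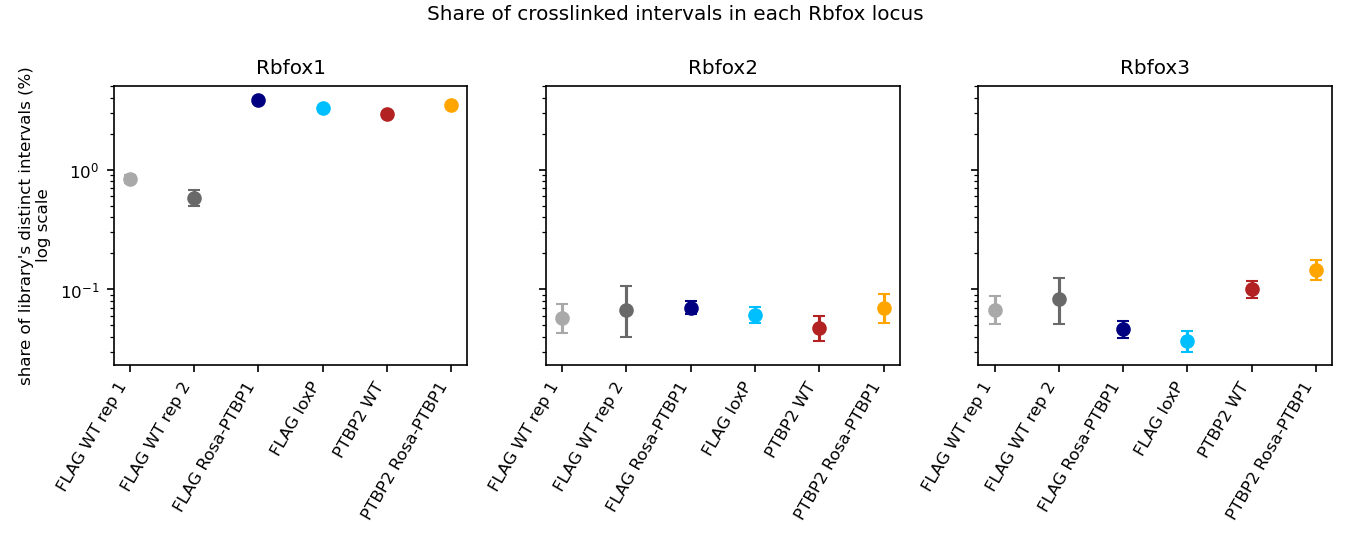
Share of each library's distinct intervals (%, log scale) that lay in the Rbfox1, Rbfox2 and Rbfox3 loci; points are single libraries and bars exact 95% intervals of counting error. Rbfox1 shares were 2.94% to 3.88% in the 4 PTBP libraries and under 1% in both WT FLAG libraries, Rbfox2 shares lay at the WT FLAG level, and Rbfox3 shares were higher in the PTBP2 than in the FLAG-PTBP1 libraries.

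Per length, the difference between the paralogues remained. Rbfox1 held 25.2 intervals per 10 kb per 100000 library intervals in FLAG Rosa-PTBP1, 21.5 in FLAG loxP, 19.1 in PTBP2 WT and 22.7 in PTBP2 Rosa-PTBP1. On the same scale Rbfox2 held 1.98 to 2.93 and Rbfox3 0.857 to 3.41 in those 4 libraries. The density of Rbfox1 was thus 7.80 to 9.61 times that of Rbfox2 in the PTBP libraries, against 2.28 and 1.35 times in WT FLAG replicates 1 and 2. It was 23.3 and 25.0 times that of Rbfox3 in FLAG Rosa-PTBP1 and FLAG loxP, and 8.17 and 6.67 times in PTBP2 WT and PTBP2 Rosa-PTBP1. How many transcripts of each gene were present was not measured in these libraries, so crosslinking per transcript cannot be told apart from transcript abundance.

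At Rbfox1 the reads also piled up. Of its merged sites, 763 of 1087 (70.2%) were stacked in FLAG Rosa-PTBP1, 543 of 787 (69.0%) in FLAG loxP, 282 of 487 (57.9%) in PTBP2 WT and 132 of 371 (35.6%) in PTBP2 Rosa-PTBP1. The shares over all sites of these libraries were 56.3%, 50.3%, 35.1% and 13.1%. WT FLAG replicate 1 had 1 stacked site among 576 in Rbfox1 (0.174%, library 0.547%), so its intervals there were nearly all scattered. WT FLAG replicate 2 had 15 of 48 (31.3%, library 8.96%), each of at most 8 intervals, while single Rbfox1 sites held up to 229, 201, 242 and 204 intervals in FLAG Rosa-PTBP1, FLAG loxP, PTBP2 WT and PTBP2 Rosa-PTBP1. At Rbfox2 25 of 44 sites were stacked in FLAG Rosa-PTBP1 (56.8%), 18 of 35 in FLAG loxP (51.4%), 5 of 18 in PTBP2 WT (27.8%) and 2 of 14 in PTBP2 Rosa-PTBP1 (14.3%). At Rbfox3 the counts were 16 of 24 (66.7%), 8 of 17 (47.1%), 9 of 20 (45.0%) and 6 of 31 (19.4%). Rbfox1 was above the library-wide share in all 4 PTBP libraries, Rbfox3 in all but FLAG loxP, and Rbfox2 in all but PTBP2 WT, though on few sites.

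On the opposite strand of the same coordinates all 6 libraries listed 0 intervals. This carries little information about background, because just 356 of 57143 listed 10-kb bins of the genome (0.623%) held intervals on both strands. By the GRCm38 annotation, used for names only, 1700123O21Rik lies inside Rbfox1 on the same strand, 4833412C15Rik, Gm49411 and Gm24056 inside Rbfox2, and Gm25040 and Gm11749 inside Rbfox3. Reads from these genes cannot be told apart from those of the host transcripts.

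Along Rbfox1 the intervals were distributed unevenly. The locus was divided into 154 bins of 10 kb: 78 were listed in all 4 PTBP libraries and 21 in none of them. The 10 fullest bins held 38.8% of the locus's intervals in FLAG Rosa-PTBP1, 45.2% in FLAG loxP, 48.6% in PTBP2 WT and 47.9% in PTBP2 Rosa-PTBP1, and 21.1% in WT FLAG replicate 1, where 139 bins were listed. The fullest bin was 6.89 to 6.9 Mb in both FLAG-PTBP1 libraries (1123 intervals in FLAG Rosa-PTBP1 and 737 in FLAG loxP). In both PTBP2 libraries it was 6.61 to 6.62 Mb, with 548 intervals in WT and 301 in Rosa-PTBP1. The fullest bin therefore differed by antibody, within a profile that was otherwise alike. Across the 154 bins, Spearman's rho was 0.91 between FLAG Rosa-PTBP1 and FLAG loxP, 0.81 between the 2 PTBP2 libraries, 0.84 between FLAG Rosa-PTBP1 and PTBP2 WT, and 0.76 between FLAG Rosa-PTBP1 and PTBP2 Rosa-PTBP1. It was 0.19 between the WT FLAG replicates and 0.59 between WT FLAG replicate 1 and FLAG Rosa-PTBP1. These coefficients are descriptions, since the bins of one locus share a transcript and its mappable sequence and are not independent.

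In windows of 100 kb, the fullest Rbfox1 window was 6.8 to 6.9 Mb in the FLAG-PTBP1 libraries (2808 and 1701 intervals in FLAG Rosa-PTBP1 and FLAG loxP), and it was also the fullest in WT FLAG replicates 1 and 2 (114 and 45 intervals). In PTBP2 WT and PTBP2 Rosa-PTBP1 the fullest was 6.6 to 6.7 Mb, with 897 and 469 intervals. The stretch from 6.5 to 7.1 Mb, chosen after the values were seen, makes up 39.0% of the locus's length. It held 70.4% of the Rbfox1 intervals in FLAG Rosa-PTBP1, 67.4% in FLAG loxP, 70.8% in PTBP2 WT and 64.8% in PTBP2 Rosa-PTBP1, beside 61.5% and 60.3% in WT FLAG replicates 1 and 2. Inside this stretch the window from 6.7 to 6.8 Mb was sparse, with 181, 110, 25 and 21 intervals in FLAG Rosa-PTBP1, FLAG loxP, PTBP2 WT and PTBP2 Rosa-PTBP1. The last full window, 7.3 to 7.4 Mb, held 18, 6, 7 and 8.

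**Figure D2:**
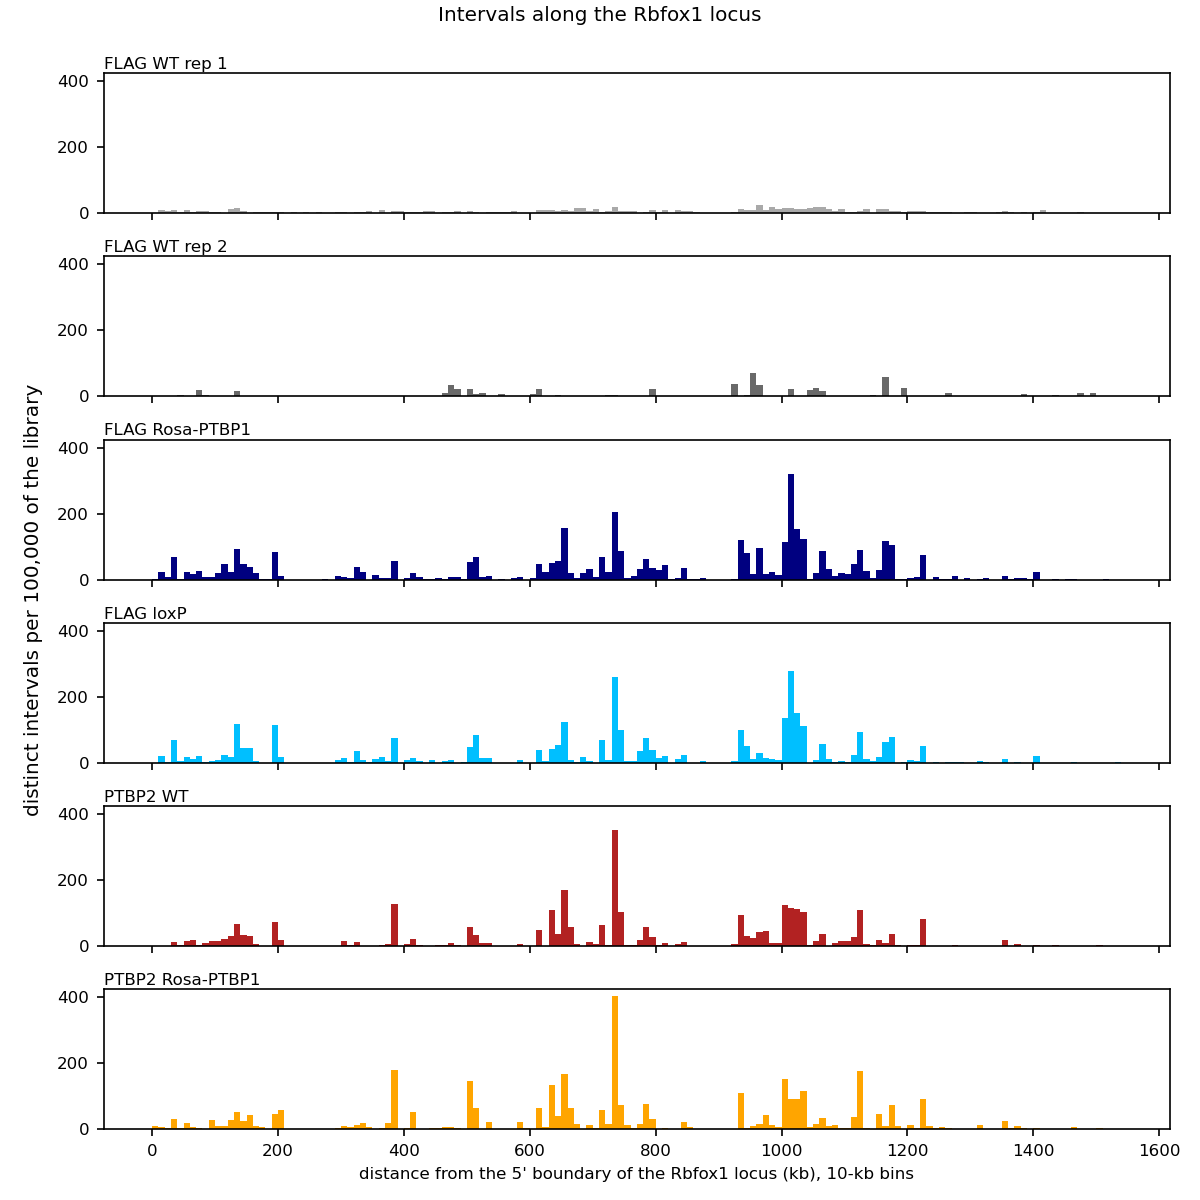
Distinct intervals per 10-kb bin along Rbfox1, in transcript direction from the 5′ bound of the locus (kb), scaled to 100000 intervals of each library; each panel is 1 library and the y axes are equal. The 4 PTBP libraries rise and fall at the same distances with gaps between, while WT FLAG replicate 1 is low and spread over 139 of 154 bins.

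Rbfox1 windows were among the fullest of the genome in all libraries, background included. By intervals per 100-kb window, the best Rbfox1 window ranked 6 in FLAG Rosa-PTBP1, 13 in FLAG loxP, 11 in PTBP2 WT and 8 in PTBP2 Rosa-PTBP1, and also 3 in WT FLAG replicate 1 and 26 in replicate 2. Of the 17 windows that touch the locus, 7, 6, 7 and 8 were in the top 100 of FLAG Rosa-PTBP1, FLAG loxP, PTBP2 WT and PTBP2 Rosa-PTBP1, and 5 and 3 in the top 100 of WT FLAG replicates 1 and 2. The rank alone therefore did not separate PTBP from background libraries at Rbfox1, whereas the share did. The best Rbfox2 window ranked from 164 (WT FLAG replicate 2) to 600 (WT FLAG replicate 1), and the best Rbfox3 window from 164 (WT FLAG replicate 2) to 833 (FLAG Rosa-PTBP1).

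In Rbfox2, the middle window from 77.0 to 77.1 Mb listed 158 intervals in FLAG Rosa-PTBP1, 96 in FLAG loxP, 63 in PTBP2 WT and 34 in PTBP2 Rosa-PTBP1. WT FLAG replicates 1 and 2 listed 18 and 1 there. The neighbouring 76.9 to 77.0 Mb window held 85, 61, 4 and 13 in FLAG Rosa-PTBP1, FLAG loxP, PTBP2 WT and PTBP2 Rosa-PTBP1, and 23 and 13 in WT FLAG replicates 1 and 2. The window that holds the 5′ end of the locus, from 77.1 Mb, held 4, 7, 7 and 5 in the PTBP libraries in that order, and 10 and 4 in WT FLAG replicates 1 and 2. Per library share, the middle window was above both WT FLAG libraries in all 4 PTBP libraries, and the 5′ window was below both WT FLAG libraries in all 4. In Rbfox3, the window from 118.7 to 118.8 Mb, at the 5′ end, held 72, 75, 75 and 46 intervals in FLAG Rosa-PTBP1, FLAG loxP, PTBP2 WT and PTBP2 Rosa-PTBP1, and 10 and 1 in WT FLAG replicates 1 and 2. The window from 118.6 to 118.7 Mb held 65, 18, 74 and 38, and 25 and 13.

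The strongest places were compared as regions, made by merging the intervals of all 6 libraries where they overlapped or touched on one strand. Those named here had the highest mean share over the 4 PTBP libraries, 8 in Rbfox1 and 5 in each of Rbfox2 and Rbfox3. Of 168274 regions in the series, Rbfox1 region 1 ranked 20 by this measure, and the 8 named Rbfox1 regions ranked between 20 and 112. No region of the 3 loci held 10 or more intervals in a WT FLAG library.

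Rbfox1 region 1 (chr16:6618234-6618662, plus strand) listed 5 and 0 intervals in WT FLAG replicates 1 and 2, 235 in FLAG Rosa-PTBP1, 201 in FLAG loxP, 242 in PTBP2 WT and 204 in PTBP2 Rosa-PTBP1. The position of highest coverage lay within 7 bases in the 4 PTBP libraries. Rbfox1 region 2 (chr16:6262560-6263182) listed 194, 195, 196 and 132 intervals in FLAG Rosa-PTBP1, FLAG loxP, PTBP2 WT and PTBP2 Rosa-PTBP1 and 0 in both WT FLAG libraries, with summits spread over 300 bases. Both regions were filled in every PTBP library and nearly or fully empty in WT FLAG.

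Rbfox1 region 3 (chr16:6910266-6911213) listed 264, 193, 93 and 62 intervals in FLAG Rosa-PTBP1, FLAG loxP, PTBP2 WT and PTBP2 Rosa-PTBP1, and 5 and 0 in WT FLAG replicates 1 and 2, with summits within 14 bases. Rbfox1 region 4 (chr16:6386018-6386400) listed 146, 106, 90 and 104 in the same 4 PTBP libraries and 0 in both WT FLAG libraries, with summits within 5 bases. Rbfox1 region 5 (chr16:7003122-7003489) listed 167, 107, 72 and 85, and 1 and 0. Summits of the 4 PTBP libraries spread over 95, 19, 146 and 61 bases at Rbfox1 regions 5, 6, 7 and 8. Highest coverage thus lay within 19 bases at regions 1, 3, 4 and 6, and was more spread at regions 2, 5, 7 and 8.

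Rbfox1 region 6 (chr16:6811989-6812332) listed 164, 100, 90 and 75 intervals in FLAG Rosa-PTBP1, FLAG loxP, PTBP2 WT and PTBP2 Rosa-PTBP1, and 0 in both WT FLAG libraries. Rbfox1 region 7 (chr16:6594454-6595204) listed 209, 167, 87 and 37, and 2 and 0 in WT FLAG replicates 1 and 2. Rbfox1 region 8 (chr16:6531075-6531413) listed 46 and 58 in FLAG Rosa-PTBP1 and FLAG loxP, 105 and 65 in PTBP2 WT and PTBP2 Rosa-PTBP1, and 3 and 0 in WT FLAG. It was the one named Rbfox1 region whose raw count was higher in both PTBP2 libraries than in both FLAG-PTBP1 libraries, although the PTBP2 libraries were smaller. Per 100000 library intervals, Rbfox1 regions 1, 2, 4 and 6 were also higher in both PTBP2 libraries than in both FLAG-PTBP1 libraries.

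Named regions of Rbfox2 held far fewer intervals. Rbfox2 region 1 (chr15:77095961-77096165, minus strand) listed 9 in FLAG Rosa-PTBP1, 9 in FLAG loxP, 22 in PTBP2 WT and 13 in PTBP2 Rosa-PTBP1, and 0 in both WT FLAG libraries. It was the one Rbfox2 region listed in all 4 PTBP libraries, with summits spread over 100 bases. Rbfox2 regions 2 to 4 (chr15:76934452-76934534, chr15:77059836-77059970 and chr15:77014211-77014279) held 11 to 16 intervals in FLAG Rosa-PTBP1 and 6 to 9 in FLAG loxP, and each was listed at 0 in 1 PTBP2 library. Rbfox2 region 5 (chr15:77095715-77095837) was listed with 6 and 3 intervals in PTBP2 WT and PTBP2 Rosa-PTBP1 and at 0 in every FLAG library.

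Rbfox3 region 1 (chr11:118733864-118734319, minus strand) listed 39 intervals in FLAG Rosa-PTBP1, 34 in FLAG loxP, 57 in PTBP2 WT and 33 in PTBP2 Rosa-PTBP1, with 1 and 0 in WT FLAG replicates 1 and 2 and summits within 15 bases. Rbfox3 region 3 (chr11:118733645-118733845), next to it, listed 20, 17, 12 and 7, and 1 and 0, with summits spread over 125 bases. Rbfox3 region 2 (chr11:118661660-118662083) listed 24, 8, 31 and 15, and 0 in both WT FLAG libraries, with summits spread over 191 bases. These were the 3 Rbfox3 regions listed in all 4 PTBP libraries, and they held 50.9%, 60.2%, 64.1% and 50.5% of the Rbfox3 intervals in FLAG Rosa-PTBP1, FLAG loxP, PTBP2 WT and PTBP2 Rosa-PTBP1. Rbfox3 thus had 3 places where all 4 PTBP libraries stacked, including the FLAG-PTBP1 libraries, whose Rbfox3 share was under that of WT FLAG. Rbfox3 region 4 (chr11:118561913-118562001) listed 9, 2, 0 and 7, and Rbfox3 region 5 (chr11:118657396-118657568) listed 19 in PTBP2 WT and 0 in the other 5 libraries.

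**Figure D3:**
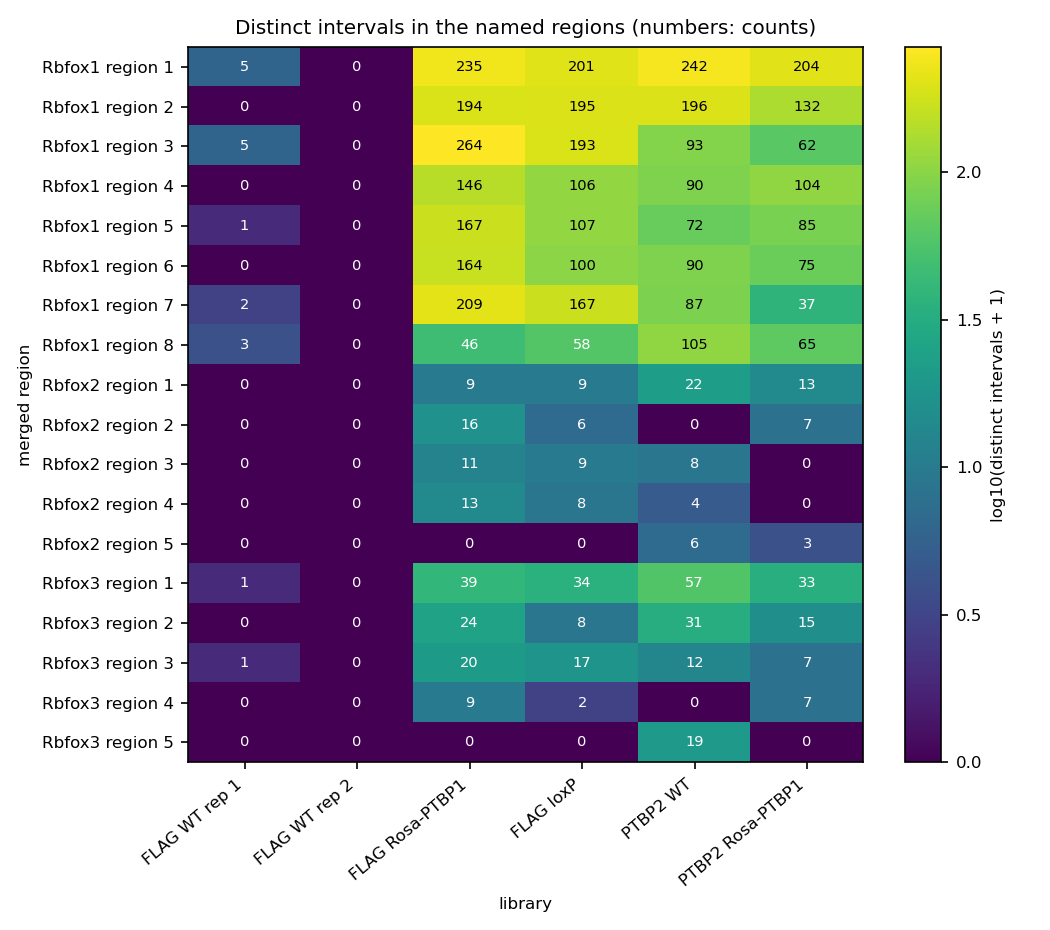
Distinct intervals in the named regions (rows) of Rbfox1, Rbfox2 and Rbfox3 in each library (columns); colour is log10 of the count plus 1 and the numbers are the counts. WT FLAG libraries held 0 to 5 intervals per region, and the Rbfox1 rows held 37 to 264 in the 4 PTBP libraries.

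The number of positions available sets an upper limit to counts of distinct intervals. Across libraries there were 84.2 to 97.1 distinct start coordinates (leftmost bases) per 100 distinct intervals, and 75.0 to 89.9 distinct end coordinates. In the 100 bases around the summit of Rbfox1 region 1, 73%, 65%, 65% and 57% of the positions were used as a start in FLAG Rosa-PTBP1, FLAG loxP, PTBP2 WT and PTBP2 Rosa-PTBP1. At Rbfox1 region 8 the values were 21%, 21%, 25% and 22%. Rbfox1 region 1 was thus more crowded than region 8, and the part of crowding in the folds between libraries was not tested.

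**Figure D4:**
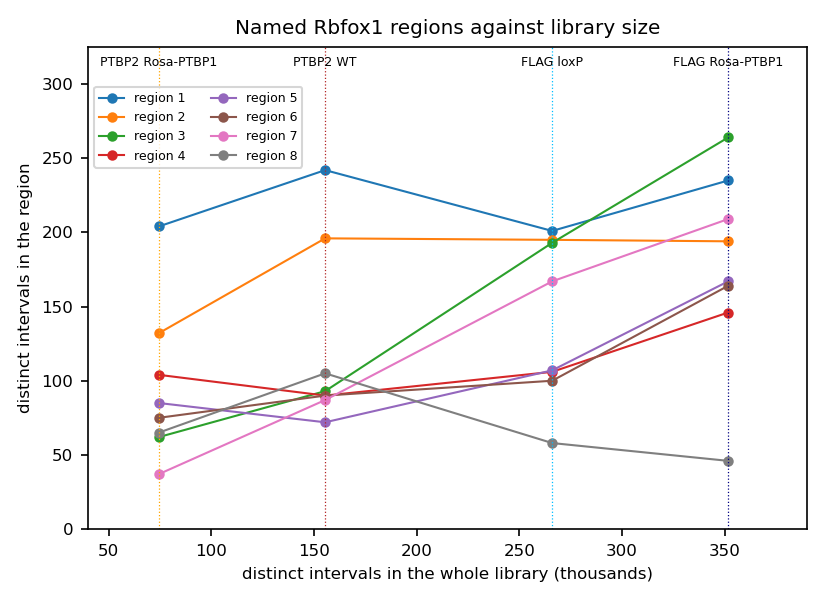
Distinct intervals in the 8 named Rbfox1 regions (y) against the size of the 4 PTBP libraries (x, distinct intervals divided by 1000); each line is a region and dotted lines mark libraries. Regions 1 and 2 stayed at similar counts between PTBP2 WT and FLAG Rosa-PTBP1, regions 3 and 7 rose with library size, and region 8 was lower in both FLAG-PTBP1 libraries than in both PTBP2 libraries.

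Sharing between libraries was counted over regions. Of 1426 Rbfox1 regions listed in at least 1 PTBP library, 859 (60.2%, series 78.3%) were listed in 1 library alone and 118 (8.27%) were listed in all 4, compared with 2.20% over the whole series and 3.28% on filled chromosomes. Of the 118, 75 held at least 5 intervals in each library. These 118 regions contained 43.4% of the Rbfox1 intervals of FLAG Rosa-PTBP1, 53.2% of FLAG loxP, 67.6% of PTBP2 WT and 75.3% of PTBP2 Rosa-PTBP1; on filled chromosomes as a whole the same shares were 34.1%, 41.6%, 49.7% and 46.1%. A WT FLAG library also listed 30 of the 118 (25.4%), close to the 21.9% of such regions over the series. Of 148 Rbfox1 regions listed in both PTBP2 libraries, 141 were also listed in a FLAG-PTBP1 library (95.3%, series 83.3%), and 7 were not. In the other direction, of 450 Rbfox1 regions listed in both FLAG-PTBP1 libraries, 202 were listed in neither PTBP2 library, and 55.1% were in at least 1 (series 49.3%). The FLAG-PTBP1 libraries held more sites to match than the PTBP2 libraries. The part of library size, and of the density of listed sites at Rbfox1, in these shares was not tested.

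By sites, 70.9% of the 787 Rbfox1 sites of FLAG loxP overlapped a FLAG Rosa-PTBP1 site by at least 1 base (exact 95% interval 67.6 to 74.1), against 48.4% of FLAG loxP sites on filled chromosomes, and 49.6% of FLAG Rosa-PTBP1 sites overlapped one of FLAG loxP (filled chromosomes 36.0%). Of the Rbfox1 sites of PTBP2 WT, 73.1% overlapped FLAG Rosa-PTBP1 (filled chromosomes 40.4%) and 36.1% overlapped PTBP2 Rosa-PTBP1 (20.9%). Of the Rbfox1 sites of PTBP2 Rosa-PTBP1, 61.2% overlapped FLAG Rosa-PTBP1 (20.6%) and 48.8% overlapped PTBP2 WT (17.8%). Of the 576 Rbfox1 sites of WT FLAG replicate 1, 19.1% overlapped FLAG Rosa-PTBP1, above 4.36% on filled chromosomes, and 4 (0.694%) overlapped WT FLAG replicate 2. Rbfox1 sites coincided more often than sites of the filled chromosomes, which include Rbfox1, for each of these pairs apart from the WT FLAG pair (filled chromosomes 0.545%). Overlap also rises with the density of listed sites, which was 7.06 per 10 kb at Rbfox1 in FLAG Rosa-PTBP1. The part of density in these overlaps was not tested.

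The PTBP2 libraries drew on fewer Rbfox1 places. At least 50% of the Rbfox1 intervals lay in the 106 fullest regions in FLAG Rosa-PTBP1, 71 in FLAG loxP, 41 in PTBP2 WT and 25 in PTBP2 Rosa-PTBP1. The 10 fullest held 13.6%, 16.6%, 24.4% and 33.1%. This order is also the order of library size, and the part of size in it was not tested.

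Rbfox1 was higher in every PTBP library than in WT FLAG. For the PTBP2 libraries WT FLAG is a reference with another antibody, so their folds over it are not folds over PTBP2 antibody background. FLAG Rosa-PTBP1 had a share 4.95 times that of the pooled WT FLAG libraries (95% interval 4.62 to 5.30), 4.59 times replicate 1 and 6.62 times replicate 2. Replicate 2 came from the same sequencing run as FLAG Rosa-PTBP1, by the read names, and replicate 1 did not. PTBP2 WT was 3.75 times the pooled WT FLAG share (3.49 to 4.03), 3.48 times replicate 1 and 5.02 times replicate 2. Within the 2 runs that PTBP2 WT shared with replicate 1 the folds were 3.17 and 2.95. FLAG loxP was 3.92 and 5.65 times, and PTBP2 Rosa-PTBP1 4.15 and 5.98 times, replicates 1 and 2. On filled chromosomes the Rbfox1 share was 4.22% in PTBP2 Rosa-PTBP1, below the 4.86% of PTBP2 WT, and 1.46% and 0.910% in replicates 1 and 2. Within the runs shared with replicate 1, PTBP2 Rosa-PTBP1 was 3.65 and 4.05 times replicate 1, and 2.54 and 2.94 times on filled chromosomes. The WT FLAG replicates themselves differed 1.44-fold (1.21 to 1.72), less than any of these folds. That single difference does not measure the spread between PTBP libraries, which had 1 library per group. In 100-kb windows, 9 of 14 Rbfox1 windows were past 2-fold higher and 1 lower in replicate 1 against replicate 2, beside 63.6% of all windows past 2-fold (49.4% higher and 14.2% lower), so single windows of the background libraries did not repeat well. Counted as merged sites instead of intervals, the folds over pooled WT FLAG were 3.36 for FLAG Rosa-PTBP1 and 2.36 for PTBP2 WT. All comparisons with WT FLAG share the same control libraries.

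By 100-kb window, 13 of the 16 Rbfox1 windows with at least 20 intervals in both libraries together were more than 2-fold higher in FLAG Rosa-PTBP1 than in WT FLAG and 1 was lower. Over all windows of the genome 59.7% were past 2-fold, 21.9% higher and 37.8% lower. The median Rbfox1 window was 4.40-fold higher, and the median of all 3097 windows tested was 0.731. In PTBP2 WT against WT FLAG, 11 of 15 Rbfox1 windows were higher and 1 was lower (genome 24.9% and 35.7%), with a median of 2.42 beside 0.845 for all. The window that was lower in both comparisons was 7.3 to 7.4 Mb, near the 3′ end.

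By intervals, Rbfox2 did not rise above WT FLAG as a locus: its fold was 1.17 (0.893 to 1.55) in FLAG Rosa-PTBP1 and 0.793 (0.564 to 1.12) in PTBP2 WT. Counted as sites, FLAG Rosa-PTBP1 was 1.81 times WT FLAG (log2 ratio 0.85, interval 0.23 to 1.48), and by deposited lines 1.22 times (0.29, 0.03 to 0.55). Both of these intervals excluded equal shares. Lines that repeat an interval are not independent counts, however: WT FLAG replicate 1 held 212 lines for 51 Rbfox2 intervals. Intervals computed on lines are therefore too narrow. For PTBP2 WT the log2 ratio was 0.21 by sites (-0.66 to 1.02) and -0.15 by lines (-0.51 to 0.20). In FLAG Rosa-PTBP1, 1 of 2 tested Rbfox2 windows was past 2-fold higher and 0 were lower, and in PTBP2 WT 1 of 3 was higher and 2 were lower. Rbfox3 was lower than WT FLAG in FLAG Rosa-PTBP1, at 0.650 times its share (0.496 to 0.858), and higher in PTBP2 WT, at 1.41 times (1.07 to 1.86). The latter was 0.931 times by merged sites. Within the sequencing runs shared with replicate 1 it was 1.75 times in the run with 53 against 54 Rbfox3 intervals, and 0.702 times in the run in which replicate 1 listed 6. PTBP2 Rosa-PTBP1 was 2.16 times (1.56 to 3.01) replicate 1 and 1.78 times (1.12 to 2.95) replicate 2 at Rbfox3, and 1.77 and 1.64 times by merged sites. On filled chromosomes its Rbfox3 share was 0.177%, nearer to the 0.117% and 0.128% of replicates 1 and 2. Within runs XA041 and XB028, shared with replicate 1, the folds were 2.29 and 1.07, and 1.59 and 0.774 on filled chromosomes. Of the Rbfox3 windows, 1 of 4 was higher and 2 were lower in FLAG Rosa-PTBP1, and 1 of 3 was higher and 1 lower in PTBP2 WT. A locus share under the WT FLAG share says that the list held relatively less there, and is not a measure of binding.

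The next question was whether FLAG-PTBP1 crosslinking at the family differed where PTBP2 carried loxp alleles. The Rbfox1 share of FLAG loxP was lower than that of FLAG Rosa-PTBP1 by a log2 ratio of -0.23 (-0.27 to -0.19), and by -0.10 (-0.14 to -0.06) on filled chromosomes. The WT FLAG replicates differed by 0.53 on the same scale. They came from different sequencing runs and differed in size and stacking, whereas FLAG loxP and FLAG Rosa-PTBP1 shared a run. The 0.53 therefore does not measure the spread between these FLAG-PTBP1 libraries. Rbfox2 (-0.19, interval -0.48 to 0.10) and Rbfox3 (-0.33, interval -0.71 to 0.04) had intervals that included 0. Of the windows tested, 1 of 16 in Rbfox1, 0 of 2 in Rbfox2 and 1 of 2 in Rbfox3 were past 2-fold, all lower in FLAG loxP, and 38.5% of all windows of the genome were past 2-fold either way (14.9% higher and 23.6% lower). Among Rbfox1 regions with 20 or more intervals, 20 of 264 were past 2-fold higher and 50 lower in FLAG loxP, beside 13.8% and 15.9% of all regions tested (29.7% in all). No named region was past 2-fold with an interval that excluded equal shares.

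For PTBP2, the comparison between Rosa-PTBP1; Emx1-cre and WT cortex asked whether its crosslinking differed where FLAG-PTBP1 was present. The Rbfox1 share was higher in PTBP2 Rosa-PTBP1 by a log2 ratio of 0.25 (0.18 to 0.32), but on filled chromosomes it was lower, at -0.20 (-0.27 to -0.13), and by merged sites it was -0.11. Within the 2 shared sequencing runs the Rbfox1 log2 ratios were 0.21 and 0.46, and -0.26 and 0.02 on filled chromosomes. The direction at Rbfox1 thus changed with the chromosomes counted, 7 of which were sparse in PTBP2 Rosa-PTBP1. Rbfox2 (0.55) and Rbfox3 (0.55) fell to 0.10 and 0.09 on filled chromosomes, with intervals that included 0. Of the windows tested, 1 of 14 in Rbfox1, 0 of 1 in Rbfox2 and 0 of 2 in Rbfox3 were past 2-fold, and 56.8% of all windows were; on filled chromosomes the counts were 0 in each locus, beside 35.3%. Of 70 Rbfox1 regions tested, 9 were higher and 8 lower in PTBP2 Rosa-PTBP1, beside 17.8% and 32.5% of all regions. Rbfox1 region 4 was 2.41-fold (1.80 to 3.24) and Rbfox1 region 5 was 2.47-fold (1.78 to 3.42) higher in PTBP2 Rosa-PTBP1, and on filled chromosomes these folds were 1.76 and 1.80, under the 2-fold limit.

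The antibodies were compared within cortex of the same genotype (Rosa-PTBP1; Emx1-cre) and between FLAG loxP and PTBP2 WT, which also differ in genotype. FLAG-PTBP1 and PTBP2 libraries came from different sequencing runs, so antibody and run cannot be told apart here. Rbfox3 showed the clearest difference: its share was 3.16-fold (2.46 to 4.05) lower in FLAG Rosa-PTBP1 than in PTBP2 Rosa-PTBP1, a log2 ratio of -1.66, and -1.27 (-1.63 to -0.91) on filled chromosomes. In FLAG loxP it was 2.72-fold (2.10 to 3.54) lower than in PTBP2 WT, a log2 ratio of -1.45, which was -0.58 (-1.60 to 0.43) by merged sites. All 3 Rbfox3 windows tested were past 2-fold lower in FLAG Rosa-PTBP1 than in PTBP2 Rosa-PTBP1, where 69.1% of all windows were past 2-fold, 25.8% lower and 43.3% higher. In FLAG loxP against PTBP2 WT 1 of 2 was lower, beside 21.6% of all windows. The 2 pairs share no library.

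Rbfox1 differed less between the antibodies than Rbfox3. Its share in FLAG Rosa-PTBP1 exceeded that in PTBP2 Rosa-PTBP1 by a log2 ratio of 0.15 (0.09 to 0.21), or 0.53 (0.47 to 0.59) on filled chromosomes. FLAG loxP exceeded PTBP2 WT by 0.17 (0.12 to 0.22). By merged sites the log2 ratios of the 2 pairs were 0.62 (0.45 to 0.80) and 0.35 (0.18 to 0.51). In the former pair 1 of 16 Rbfox1 windows was past 2-fold higher and 1 lower, and on filled chromosomes 5 were higher and 0 lower, beside 27.7% and 24.8% of all windows. In the latter pair 2 of 15 were higher and 0 lower, beside 22.8% and 21.6%. For Rbfox2 the log2 ratios were 0.01 (-0.43 to 0.47) and 0.37 (-0.03 to 0.79). On filled chromosomes they were 0.39 (-0.04 to 0.85) and 0.43 (0.03 to 0.85), the latter with an interval that excluded equal shares. None of 2 Rbfox2 windows was past 2-fold in the former pair, and 1 of 2 was higher in the latter.

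**Figure D5:**
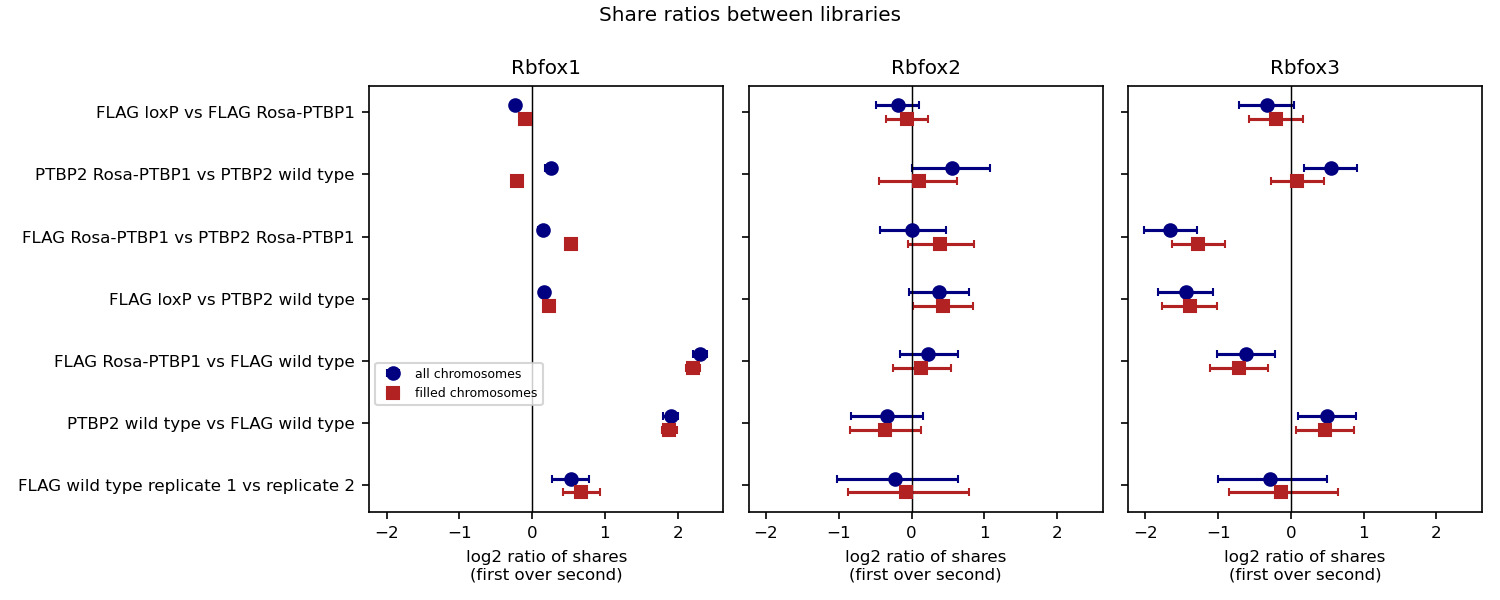
Log2 ratio of the shares of distinct intervals (first library over second) for Rbfox1, Rbfox2 and Rbfox3 in each comparison, over all chromosomes (circles) and filled chromosomes (squares), with exact 95% intervals of counting error. Rbfox1 lies near 2 in the comparisons with WT FLAG and within 0.53 of 0 between PTBP libraries, and Rbfox3 lies at -1.66 and -1.45 between the antibodies.

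Single regions were compared between the antibodies as well. Among all regions tested, 79.5% were past 2-fold in FLAG Rosa-PTBP1 against PTBP2 Rosa-PTBP1 (60.8% higher and 18.7% lower), and 46.1% in FLAG loxP against PTBP2 WT (26.8% higher and 19.3% lower). Of 178 Rbfox1 regions tested in the former pair, 92 were higher and 29 lower in FLAG Rosa-PTBP1, and 72 were listed at 0 in PTBP2 Rosa-PTBP1 (40.4%, all regions 53.2%). Of 155 in the latter, 41 were higher and 22 lower in FLAG loxP. As shares these were 51.7% higher and 16.3% lower, and 26.5% and 14.2%, each at or below the share over all regions.

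Rbfox1 region 8 was higher with the PTBP2 antibody in both pairs, 6.68-fold (4.51 to 9.96) in PTBP2 Rosa-PTBP1 over FLAG Rosa-PTBP1 and 3.10-fold (2.23 to 4.35) in PTBP2 WT over FLAG loxP. Rbfox1 region 1 was 4.10-fold (3.38 to 4.97) and 2.06-fold (1.70 to 2.50) higher with the PTBP2 antibody, the latter 1.98-fold on filled chromosomes, and its start positions were the most used of the named regions. In the Rosa-PTBP1 pair, Rbfox1 regions 2 and 4 were 3.21-fold and 3.37-fold higher in PTBP2, and regions 5 and 6 were 2.40-fold and 2.16-fold higher, falling to 1.84-fold and 1.65-fold on filled chromosomes.

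Outside Rbfox1, Rbfox2 region 1 was 6.82-fold (2.70 to 18.1) higher in PTBP2 Rosa-PTBP1 than in FLAG Rosa-PTBP1 and 4.18-fold (1.85 to 10.3) higher in PTBP2 WT than in FLAG loxP. Rbfox3 region 1 was 4.00-fold (2.44 to 6.52) and 2.87-fold (1.84 to 4.52) higher with the PTBP2 antibody, and Rbfox3 region 2 was 2.95-fold (1.44 to 5.86) and 6.63-fold (2.98 to 16.7) higher. Among named regions with at least 20 intervals in both libraries together, 9 in the Rosa-PTBP1 pair were past 2-fold with an interval that excluded equal shares. In the pair of FLAG loxP and PTBP2 WT 5 were. On filled chromosomes Rbfox1 regions 5 and 6 in the former pair, and Rbfox1 region 1 in the latter, fell under 2-fold. Over all regions tested 79.5% and 46.1% were past 2-fold in the 2 pairs, without the condition on the interval. All of the named regions counted here, in either pair, were higher with the PTBP2 antibody. They had been chosen by mean share over the 4 PTBP libraries, a measure in which the more concentrated PTBP2 libraries weigh more, so their common direction is not independent of the choice.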

How the data were processed

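CLIP-seq intervals of 6 libraries in 5 groups were analysed. Per the labels' protocols, cortex was irradiated at 400 mJ/cm2, RNA was trimmed with micrococcal nuclease on the beads, and complexes of 80 to 110 kDa were cut from the membrane. Per the submitters' processing notes reads were aligned with Bowtie to mm9; no version, cluster caller, caller background or false discovery rate is given in these sources. Per the file headers, the deposited lists hold reads of clusters that passed that rate, as coordinates with a read name and no score or count. Lines repeating an interval carried the same read name and were collapsed, so a pile is limited by its number of distinct positions.

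Members and lists were chosen with earlier results of these data known. Intervals were counted by midpoint in each locus, as shares of the library, and merged into sites (per library) or regions (all 6 libraries). Shares have exact Clopper-Pearson and ratios exact conditional binomial 95% intervals. A call was a share ratio past 2-fold among 100-kb windows or regions with at least 20 intervals in both libraries together. Regions named were the 8 (Rbfox1) or 5 (Rbfox2, Rbfox3) with the highest mean share over the 4 PTBP libraries, and any with 10 or more intervals in WT FLAG, of which there were 0. Among the named, folds are given for those with at least 20 intervals in both libraries together that were past 2-fold with an interval that excluded equal shares. Merging and ratios were tested on simulated data.

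Alternatives were merged sites, deposited lines, filled chromosomes, single runs, leaving out a WT FLAG replicate, another merging distance, locus overlap, fold, window and minimum; distinct start positions and filled chromosomes for windows and regions were added after the data were seen. The labels do not say whether the WT FLAG replicates came from separate animals. No mm9 genome or gene model was used, so no sequence, exon or intron is given, and a list of 20 other splicing regulators was not analysed here. Analyses used Python 3.11.15, numpy 2.4.6, pandas 2.3.3, scipy 1.17.1 and matplotlib 3.10.9.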

Additional observations from a re-analysis of the deposited data

How the results depend on the processing

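The family's intervals were mostly those of Rbfox1, 97.1% in FLAG Rosa-PTBP1 and 95.2% in PTBP2 WT. The direction of the family's share over WT FLAG was kept under every alternative. Without WT FLAG replicate 1 or 2 the log2 ratio lay between 2.04 and 2.44 for FLAG Rosa-PTBP1, and between 1.67 and 2.07 for PTBP2 WT. Run WA047 alone is the same calculation as leaving out replicate 1 (2.44). By merged sites the family's log2 ratio fell to 1.60 and 1.11, and in run XB028 it was 1.34 for PTBP2 WT. Rbfox3 in FLAG Rosa-PTBP1 lay below WT FLAG under every alternative (-0.49 to -0.83). Rbfox2 in PTBP2 WT lay below it except by merged sites (0.21). PTBP2 Rosa-PTBP1 against PTBP2 WT changed direction: the family's log2 ratio of 0.27 became -0.057 by merged sites and -0.19 on filled chromosomes, and was 0.11 by deposited lines and 0.47 in run XB028. Rbfox1 became -0.11 and -0.20, and Rbfox2 -0.083 by merged sites. Rbfox3 in PTBP2 WT against WT FLAG became -0.10 by merged sites and -0.51 in run XB028. FLAG loxP against FLAG Rosa-PTBP1 was -0.16 by merged sites and -0.10 on filled chromosomes. FLAG Rosa-PTBP1 against PTBP2 Rosa-PTBP1 was 0.55, 0.34 and 0.49 by sites, lines and filled chromosomes, and FLAG loxP against PTBP2 WT was 0.33, 0.20 and 0.20. The cause of these changes was not tested. Regions listed in all 4 PTBP libraries numbered 122, or 79 with 5 intervals in each. Counts of Rbfox windows past the fold are given with the number tested and the share over all windows. For FLAG loxP against FLAG Rosa-PTBP1 they were 0 of 20 with a fold of 3 (22.4%), 4 of 35 in 50-kb windows (40.2%) and 1 of 19 with a minimum of 50 (29.8%). For PTBP2 Rosa-PTBP1 against PTBP2 WT they were 0 of 17 with a fold of 3 (42.4%), 5 of 28 in 50-kb windows (55.4%) and 0 of 17 on filled chromosomes (35.3%). For FLAG Rosa-PTBP1 against PTBP2 Rosa-PTBP1 they were 2 of 21 with a fold of 3 (54.0%), 8 of 34 in 50-kb windows (70.7%), 3 of 19 with a minimum of 50 (65.0%) and 8 of 21 on filled chromosomes (52.5%). In 50-kb windows they were 10 of 32 for FLAG loxP against PTBP2 WT (46.4%) and 28 of 36 for FLAG Rosa-PTBP1 against WT FLAG (56.0%). With a fold of 3 they were 10 of 21 for PTBP2 WT against WT FLAG (40.5%). No paired analysis was possible because replicate numbers exist only within WT FLAG. A small list limits Rbfox2 and Rbfox3, where single libraries held as few as 18 and 22 intervals.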
